A study of Mus musculus with 9 samples.

Results

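The comparison described here set the spinal cords of 3 mice with a contusion injury that received the drug FIPI (the SCI+FIPI group) against those of 3 uninjured mice (the Sham group), and it covered every gene with enough counts to test, 18699 of 52550 in the deposited table. It addresses which parts of the gene expression response to injury were present at day 7 in cord treated with the drug. All mice were adult female C57BL/6N animals. SCI+FIPI mice had a thoracic contusion and daily intraperitoneal injections of 5-fluoro-2-indolyl des-chlorohalopemide (FIPI), an inhibitor of phospholipase D, from the injury until they were killed. SCI mice (n = 3), which appear below only beside the SCI+FIPI values, had the same contusion and injections of the solvent DMSO. Sham mice had the bone over the cord removed and the cord left intact, and no injections are stated for them, so in SCI+FIPI against Sham the injury, the drug, its solvent and the injections cannot be told apart. No treated group without injury was analysed here.

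The tissue was a segment of cord around the injury, ground whole, so each value is an average over all cells of the segment. Its identity as cord was checked on marker lists. Hox genes of the trunk summed to between 571 and 618 CPM (counts scaled to a common library size) in the SCI+FIPI mice and to between 861 and 872 CPM in the Sham mice. Myelin and oligodendrocyte genes summed to between 25800 and 30500 CPM with the drug, and the pain receptor genes Trpv1, Scn10a, Scn11a and Mrgprd of sensory ganglia had at most 11 counts in any mouse and were not tested. The 5 ganglion genes that were tested summed to between 6.39 and 7.33 CPM in Sham mice and between 5.59 and 5.98 CPM in SCI+FIPI mice, with Avil higher and P2rx3 and Isl2 lower. Isl2 did not pass when any one of Sham mice 1 and 2 or SCI+FIPI mice 1 and 3 was left out (values from −0.70 to −0.57). Libraries held between 20806000 and 24582377 counts, and no 2 libraries of a group agreed within sampling noise.

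By way of background, a contusion breaks vessels and membranes at the site of impact, and the tissue then passes through overlapping phases. Resident microglia and blood monocytes take up debris rich in myelin lipid, astrocytes enlarge and form a border, and fibroblasts lay down collagen in the core. Neurons and oligodendrocytes are lost around the lesion. Phospholipase D cleaves phosphatidylcholine to phosphatidic acid, a signalling lipid with roles in membrane traffic and in the activation of phagocytes.

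Cord of SCI+FIPI mice still differed widely from Sham cord. Of the 18699 genes tested, 7128 (38.1%) passed the limits used throughout, an adjusted p under 0.05 in edgeR's quasi-likelihood test and a log2 fold change of at least 0.5 in size. These were 3957 genes higher (21.2%) and 3171 lower (17%) with injury and drug, and the same limits gave 4571 higher (24.4%) and 4209 lower (22.5%) in SCI against Sham, a comparison that rests on the same 3 Sham mice. The changes were asymmetric in size. Among the higher genes 2376 (60%) changed by at least 1 on the log2 scale and 250 by at least 3, whereas among the lower genes 1000 (31.5%) changed by at least 1 and 4 by at least 3. The 3 SCI+FIPI values lay entirely above or below the 3 Sham values for 7021 of the 7128 genes (98.5%), against 66.3% of all genes tested. Between SCI and Sham mice 70.5% of all genes did not overlap, and between SCI+FIPI and SCI mice 30.2%.

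The median log2 fold change over all genes tested was −0.003, and the median size of a change was 0.435 in SCI+FIPI against Sham and 0.546 in SCI against Sham. Genes higher with injury and drug took 10.6 to 11.7% of all counts in the Sham mice, 27.2 to 28.8% in the SCI+FIPI mice and 31.1 to 34.5% in the SCI mice. Genes lower with injury and drug took 30.5 to 32% of counts in the Sham mice, 17.2 to 18.5% in the SCI+FIPI mice and 13.3 to 15.5% in the SCI mice. Both sets were chosen by SCI+FIPI against Sham, so the direction of the difference between these groups was fixed by the choice. In the direct test of SCI+FIPI against SCI, 572 genes (3.06%) passed, 442 higher (2.36%) and 130 lower (0.695%) with the drug. That count rested on single mice, falling to 189 without SCI+FIPI mouse 2, 240 without SCI mouse 3 and 341 without SCI mouse 2, and rising to 1038 without SCI mouse 1.

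**Figure D1:**
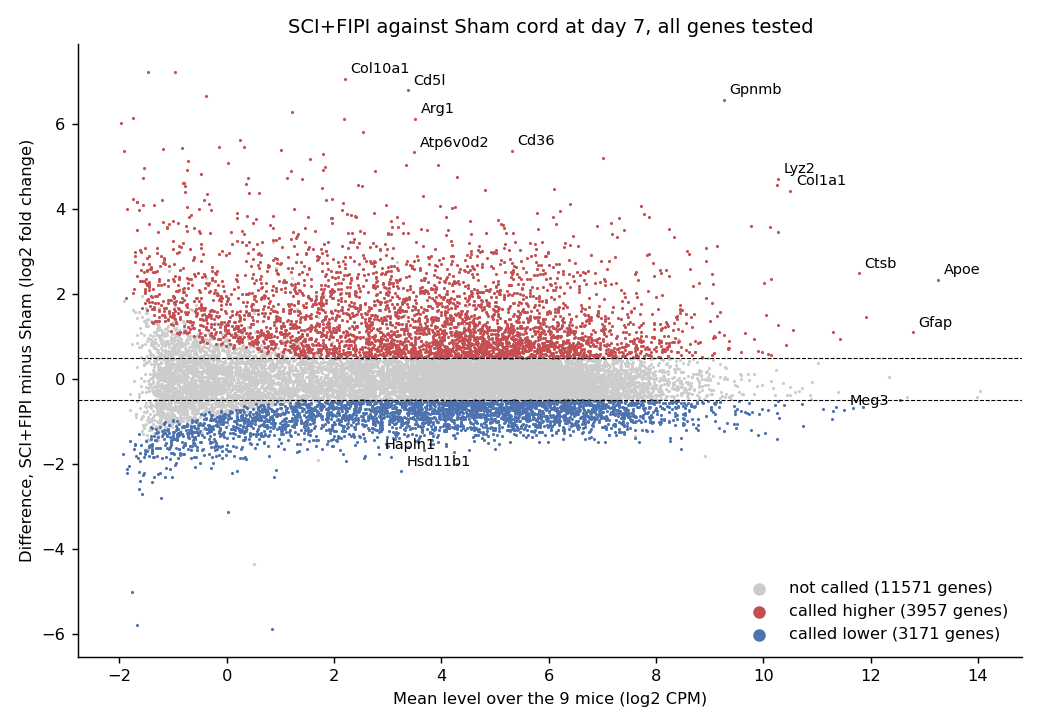
Each point is 1 of the 18699 genes tested, with its mean level over all mice on the x axis (log2 CPM) and its log2 fold change in SCI+FIPI against Sham on the y axis. Genes that passed the test are coloured by direction, 3957 higher and 3171 lower. Large rises outnumber large falls, with 29 rises and 3 falls of at least 5 in size.

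For 5631 genes (30.1%) the 95% confidence interval of the fold change lay wholly between −0.5 and 0.5, so their level under injury and drug was bounded near that of Sham cord. Protein-coding genes made up 15487 of the genes tested, with 22.5% higher and 16.9% lower. Of 689 lincRNA genes 14.4% were higher and 21.8% lower. In a bulk tissue, fewer cells of a type and less RNA per cell cannot be told apart. Levels are also relative to the whole library, so a gene can read lower where other RNA increased. Both limits apply to every fall and rise below.

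The largest absolute gains in counts were in Apoe, Ctsb, Gfap, Col1a1 and Lyz2. Apoe, the apolipoprotein that carries cholesterol between cells of the nervous system (chr7:19696109-19699188, minus strand, GRCm38), had 3607, 3327 and 2486 CPM in Sham mice 1 to 3 and 16060, 14390 and 17020 CPM in SCI+FIPI mice 1 to 3. The groups did not overlap, and the log2 fold change was 2.33 (SE 0.14, adjusted p = 3.92e-08). Ctsb, a lysosomal cysteine protease, stood at 1147, 1030 and 957 CPM in Sham cord and 6829, 5196 and 5521 CPM with injury and drug, a log2 fold change of 2.48 (SE 0.11). Its exons overlap those of Fdft1 over 12.8% of their length. Lyz2, the lysozyme of macrophages, went from 128, 169 and 92 CPM to 3995, 2956 and 3237 CPM, again without overlap (log2 fold change 4.71, SE 0.26). Part of Lyz2 (14.2% of its exonic sequence in stretches of 50 bases) is shared with Lyz1, so reads between these genes may be misassigned.

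Large losses in counts were in Meg3 and mitochondrial genes. Meg3, a long noncoding RNA abundant in neurons, had 4327, 4436 and 4443 CPM in Sham mice and 2812, 2649 and 2449 CPM with injury and drug (log2 fold change −0.74, SE 0.08, adjusted p = 1.14e-06), with no overlap. The mitochondrially encoded mt-Nd2, a subunit of respiratory complex I, fell from 3923, 4287 and 3927 CPM to 2162, 2308 and 1903 CPM (log2 fold change −0.93, SE 0.08).

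Among genes above a mean log2 CPM of 1, the largest fold rises were in Col10a1, Cd5l and Gpnmb. Col10a1, a collagen of hypertrophic cartilage (chr10:34389981-34397085, plus strand), read 0.192, 0.0432 and 0 CPM in Sham mice, 14.8, 13.1 and 4.03 CPM in SCI+FIPI mice and 65.9, 69.8 and 80.4 CPM in SCI mice. It was higher than Sham with the drug (log2 fold change 7.07, SE 1.01, adjusted p = 0.000874), a size that depends on the prior count because Sham was so low, and it was lower than in SCI mice (log2 fold change −2.77, adjusted p = 0.0131). Cd5l, a scavenger protein secreted by macrophages, had 0.766, 0.345 and 0.125 CPM in Sham mice and 55.1, 39.8 and 39.5 CPM in SCI+FIPI mice (log2 fold change 6.79, SE 0.34, adjusted p = 4.65e-07). Gpnmb, a glycoprotein of lipid-laden phagocytes (chr6:49036546-49070929, plus strand), went from 32.7, 36.5 and 11.7 CPM to 3596, 2101 and 2017 CPM (log2 fold change 6.58, SE 0.54, adjusted p = 5.34e-05). None of these 3 genes overlapped between Sham and SCI+FIPI mice. Lrrc15 (log2 fold change 6.29), Arg1 (6.13), the serotonin receptor gene Htr2b (6.11, with 11.8% of its exons overlapping Psmd1), the coagulation factor gene F7 (5.82), the antisense gene 4930430E12Rik (5.39), the fatty acid translocase gene Cd36 (5.38) and Atp6v0d2 (5.34) followed.

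The largest fold falls above the same level were smaller. Hsd11b1, the enzyme that regenerates active glucocorticoid inside cells (chr1:193221634-193264075, minus strand), had 29.9, 27.8 and 32.8 CPM in Sham mice and 5.77, 8.99 and 5.24 CPM with injury and drug (log2 fold change −2.18, SE 0.21, adjusted p = 5.18e-06). Every SCI+FIPI mouse lay below every Sham mouse. Next came Smyd1 (log2 fold change −1.92), the heparan sulfate enzyme gene Ndst4 (−1.87), the lincRNA gene 1700040D17Rik (−1.83), the GABA receptor subunit gene Gabrb2 (−1.80) and Hapln1 (−1.78), a link protein of perineuronal nets.

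**Figure D2:**
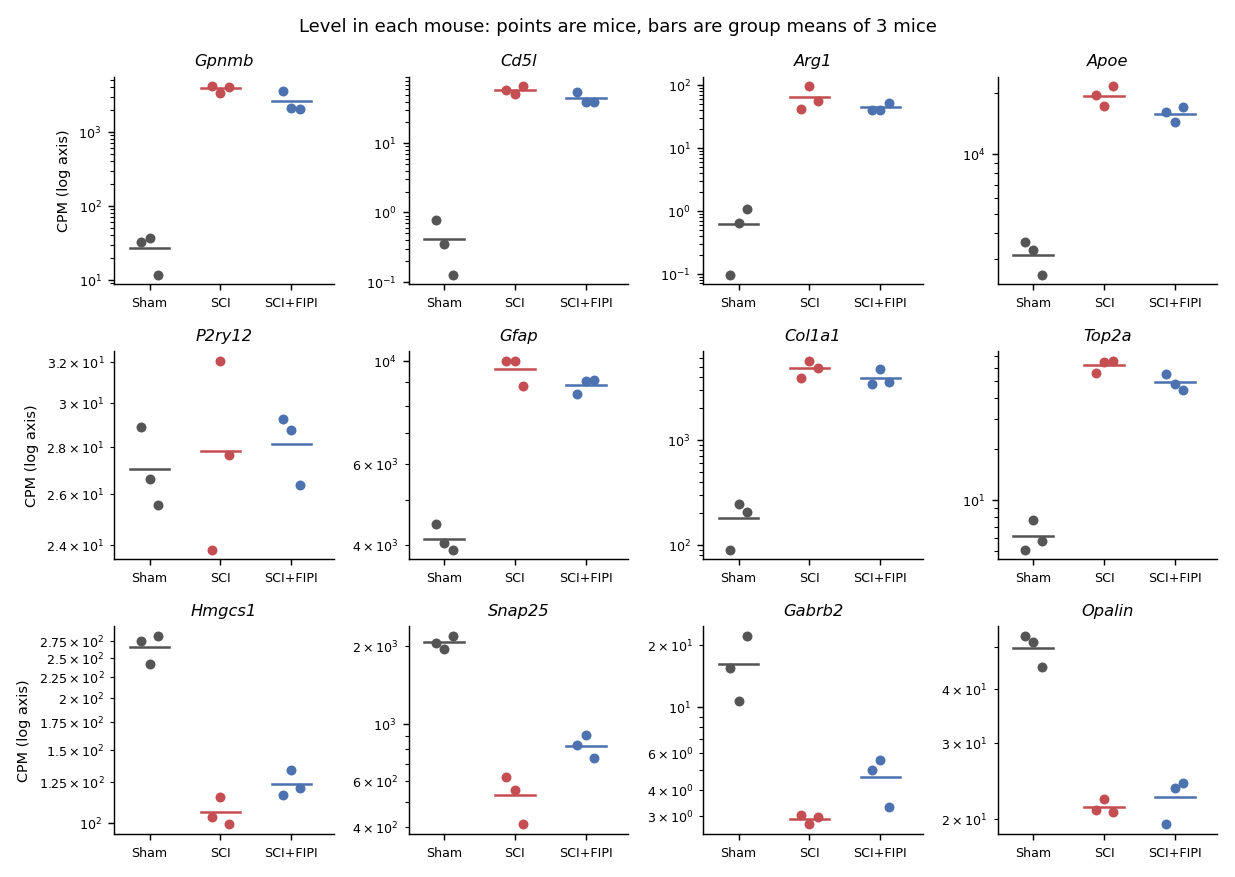
Levels of 12 genes in each mouse (y axis, CPM on a log scale) in Sham, SCI and SCI+FIPI cord, with 1 point per mouse and a line at the mean of 3 mice. Gpnmb, Cd5l, Arg1, Apoe, Gfap, Col1a1 and Top2a are higher in all SCI+FIPI mice than in all Sham mice, Hmgcs1, Snap25, Gabrb2 and Opalin are lower, and P2ry12 overlaps.

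Described by 57 lists of genes, of which 929 members were tested, the response fell into immune, proliferative, matrix and vascular rises and into neuronal and sterol synthesis falls. Across all lists 396 members were higher and 224 lower, against 21.2% higher and 17% lower among all genes tested. Groups did not overlap for 616 of these 620, and they did not for 98.5% of all genes that passed. The immune lists together held 246 tested members, of which 180 were higher and 7 lower (median log2 fold change 1.57, and 1.90 in SCI against Sham). Lists of neuronal genes held 220, with 23 higher and 141 lower (median −0.75, and −1.08 in SCI against Sham). The direct test of SCI+FIPI against SCI passed for 18 lower and 1 higher of the immune members and for 41 higher and 0 lower of the neuronal members, against 2.36% higher and 0.695% lower among all genes tested. These shares of all genes tested, against Sham and against SCI, are the base for every list count below.

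**Figure D3:**
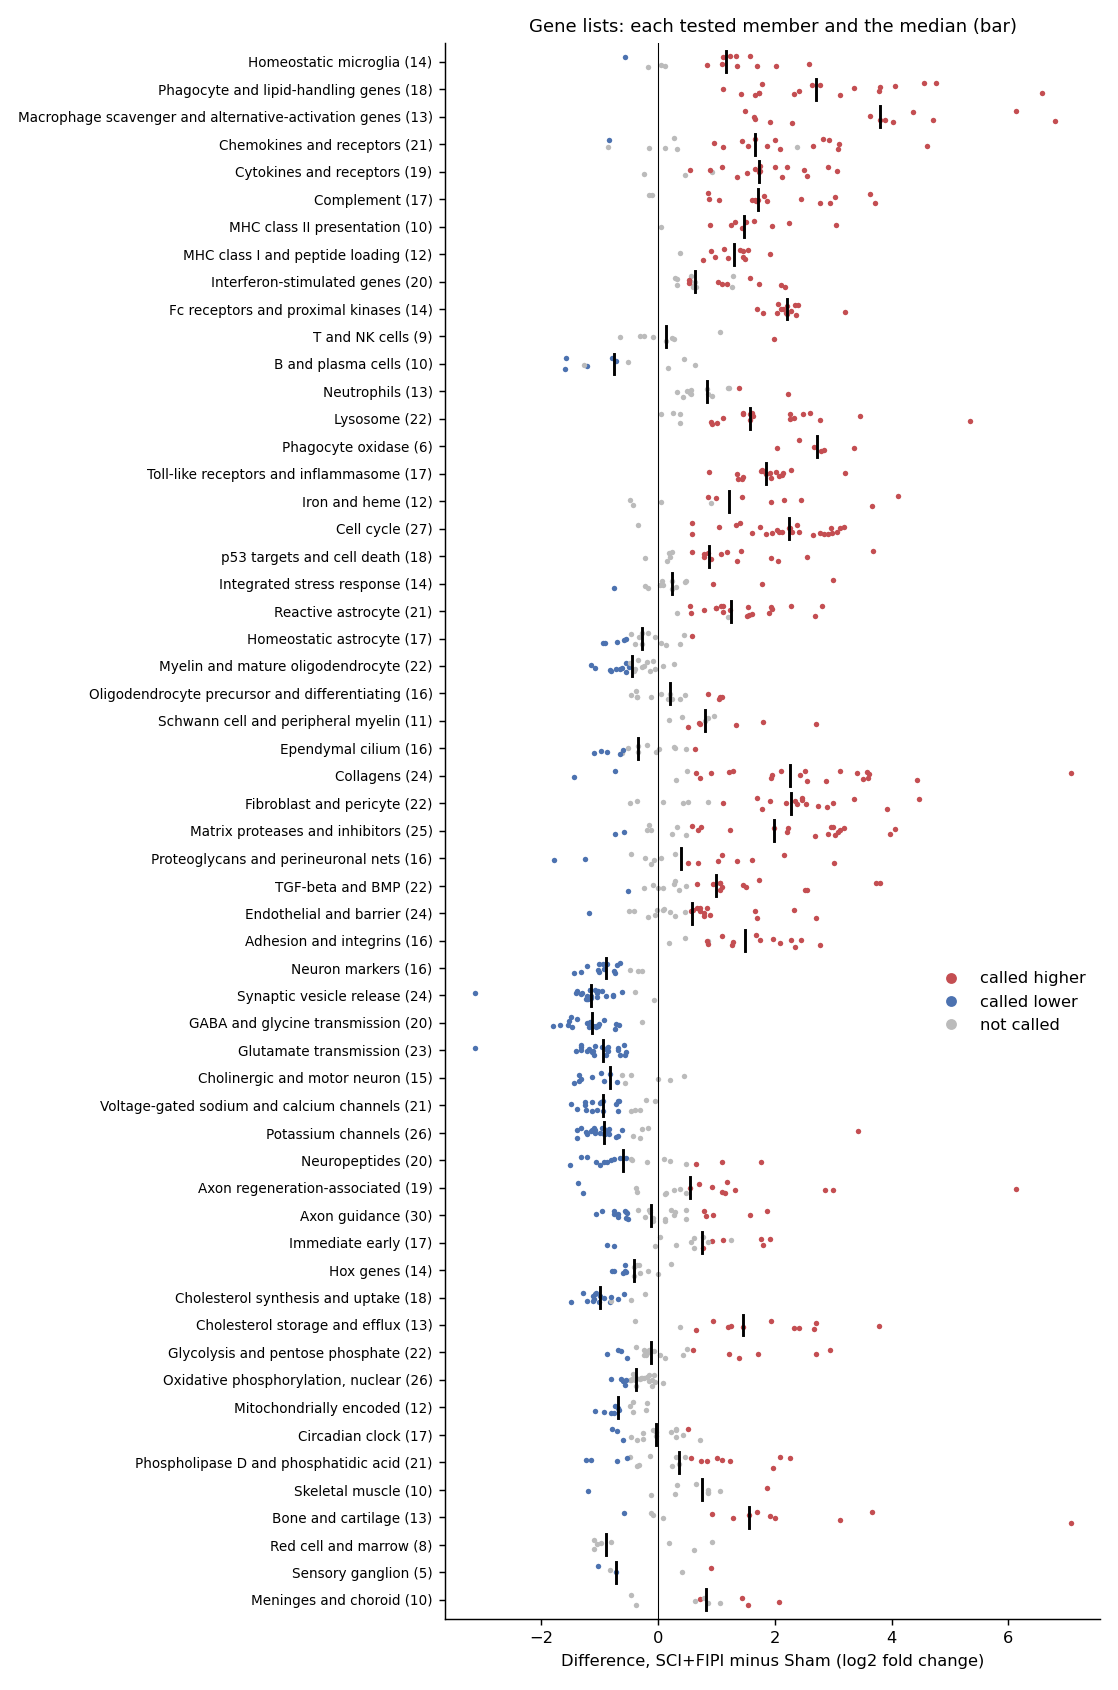
Each point is 1 tested member of a list, placed by its log2 fold change in SCI+FIPI against Sham (x axis), with 1 strip per list, its number of tested members in brackets and a bar at the median. Red and blue mark members that passed higher and lower, and grey those that did not. Phagocyte, Fc receptor, cell cycle and collagen lists lie almost wholly to the right of 0, and synaptic, channel and cholesterol synthesis lists almost wholly to the left.

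Microglia are the resident macrophages of the cord, and genes of their resting state did not move as 1 block. Of 14 such genes 10 were higher, 1 was lower and 3 did not pass, against 21.2% higher and 17% lower among all genes tested. P2ry12, the ADP receptor that steers microglial processes, had 28.9, 26.6 and 25.6 CPM in Sham mice and 29.2, 28.7 and 26.4 CPM in SCI+FIPI mice. Those ranges overlapped, and the log2 fold change of 0.06 had a 95% interval of −0.155 to 0.271. Tmem119, a membrane protein used as a microglial marker, went from 26.6, 28.4 and 25 CPM to 82.8, 88.9 and 86.4 CPM (log2 fold change 1.69, SE 0.06, adjusted p = 1.4e-10). Fcrls rose most in this list (log2 fold change 2.59), and the fructose transporter gene Slc2a5 was the member that fell (−0.57, SE 0.21, adjusted p = 0.0331), leaving 0 lower members when any one of Sham mice 1 and 2 or SCI+FIPI mice 1 and 3 was left out.

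All 18 phagocyte and lipid-handling genes were higher with injury and drug, against 21.2% of all genes tested. Their log2 fold changes had a median of 2.71. Their summed level was 3240 to 4600 CPM in the Sham mice, 22800 to 28700 CPM in the SCI+FIPI mice and 30900 to 37500 CPM in the SCI mice. Spp1, which encodes osteopontin, had 136, 141 and 105 CPM in Sham cord and 4266, 2672 and 2085 CPM with injury and drug, a log2 fold change of 4.56 (SE 0.31, adjusted p = 1.03e-05). SCI+FIPI mouse 1 was the highest of its group for Spp1 and also for Gpnmb. Lgals3, a lectin of activated macrophages, rose by 3.81 (SE 0.28) and Trem2, the lipid-sensing receptor of microglia, by 3.35 (SE 0.16) on the log2 scale. No member of the list differed between SCI+FIPI and SCI by the limits used. For Gpnmb that difference was −0.59 with a 95% interval of −1.596 to 0.417.

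Macrophage scavenger and alternative-activation genes were higher for all 13 members tested. The median log2 fold change of 3.80 was the largest of the 57 lists. Its size depended on members with few counts. With at least 10 counts required in every mouse, 8 members were tested, all 8 higher, and the median moved by 0.83. Arg1, the arginase of alternatively activated macrophages, read 0.0958, 0.648 and 1.09 CPM in Sham mice and 41, 40.7 and 52 CPM in SCI+FIPI mice (log2 fold change 6.13, SE 0.59, adjusted p = 0.000109). Mrc1, the mannose receptor, had 4.02, 6.57 and 8.11 CPM against 29.1, 24.2 and 39.5 CPM, with no overlap (log2 fold change 2.30, SE 0.33). Cd163, the haptoglobin-hemoglobin scavenger receptor, rose by 1.66 (SE 0.41). Stab1 and Clec10a were higher than Sham (log2 fold changes 3.88 and 1.91) and also lower than in SCI mice (−0.62 with adjusted p = 0.0119, and −1.01 with adjusted p = 0.0254).

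Degradative genes were higher too. Of 22 lysosomal genes 18 were higher and none was lower in edgeR's test (median log2 fold change 1.57). Lamp1, a structural membrane protein of lysosomes, went from 431, 433 and 402 CPM to 854, 743 and 761 CPM (log2 fold change 0.90, SE 0.08), and Atp6v0d2, a proton pump subunit of macrophages and osteoclasts, from 0.623, 1.6 and 0.376 CPM to 48.1, 28.2 and 29.9 CPM (5.34, SE 0.42). Neither gene overlapped between groups. All 6 subunits of the phagocyte oxidase, the enzyme complex that makes superoxide, were higher, with a median of 2.73. Cybb, its catalytic subunit, had 10, 19.1 and 7.27 CPM in Sham cord and 93.5, 79.6 and 89.3 CPM with injury and drug (log2 fold change 2.85, SE 0.32, adjusted p = 0.000253).

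Iron and heme genes were higher for 8 of 12 members (median 1.21), and 1 was lower without Sham mouse 2 or SCI+FIPI mouse 1. Hmox1, the heme oxygenase induced by free heme, had 10.9, 13.4 and 9.07 CPM in Sham mice and 222, 182 and 176 CPM in SCI+FIPI mice, with no overlap (log2 fold change 4.12, SE 0.28, adjusted p = 1.19e-05). Ftl1, the ferritin light chain, passed too, but 79.3% of its sequence is shared with a copy, so its value is uncertain.

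All 14 Fc receptor and proximal kinase genes were higher than in Sham cord (median 2.20), against 21.2% of all genes tested. Of these, 4 were also lower than in SCI cord, among them the kinase genes Syk, Btk and Lyn, against 0.695% of all genes tested. Fcgr1, the high-affinity receptor for immunoglobulin G, had 11, 10.5 and 6.6 CPM in Sham mice and 45.2, 34.3 and 37 CPM in SCI+FIPI mice (log2 fold change 2.06, SE 0.19, adjusted p = 1.03e-05). Btk read 2.87, 3.07 and 2.26 CPM in Sham cord, 14.8, 12.9 and 14.3 CPM with injury and drug, and 19.5, 18.8 and 24.2 CPM in SCI cord. The 3 groups of mice did not overlap for Btk, and the log2 fold changes were 2.36 against Sham (SE 0.14) and −0.57 against SCI (adjusted p = 0.0112). All 17 Toll-like receptor and inflammasome genes were higher as well (median 1.84), with Tlr2 at 10.2, 10.9 and 7.52 CPM in Sham mice and 35.8, 32.6 and 40 CPM in SCI+FIPI mice (log2 fold change 1.93, SE 0.18).

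Complement genes were higher for 15 of 17 members tested (median 1.71). C1qa, part of the recognition molecule of the classical pathway, had 147, 137 and 97.6 CPM in Sham cord and 873, 790 and 938 CPM with injury and drug (log2 fold change 2.77, SE 0.16, adjusted p = 4.25e-07), without overlap. C3, the central component, changed less, from 212, 173 and 197 CPM to 314, 322 and 419 CPM (log2 fold change 0.86, SE 0.11).

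Chemokine and cytokine genes were mostly higher. Of 21 chemokine genes and receptors 14 were higher and 1 lower (median 1.66), and of 19 cytokine genes and receptors 16 were higher (median 1.73). Ccl2, which recruits monocytes, had 0.958, 1.43 and 0.334 CPM in Sham mice, 6.08, 5.04 and 6.04 CPM in SCI+FIPI mice and 12.4, 20.8 and 14.4 CPM in SCI mice. No pair of groups overlapped for Ccl2, with log2 fold changes of 2.66 against Sham (SE 0.37, adjusted p = 0.000143) and −1.47 against SCI (adjusted p = 0.013). Tnf read 0.239, 0.475 and 0.418 CPM in Sham mice and 2.01, 1.27 and 1.38 CPM in SCI+FIPI mice (log2 fold change 2.01, SE 0.38), and it was lower than in SCI mice by 1.02 (adjusted p = 0.0408).

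Not every member of these lists was clearly higher. Il1b had 0.671, 0.734 and 0.585 CPM in Sham cord and 1.52, 3.98 and 5.83 CPM with injury and drug, a log2 fold change of 2.51 (SE 0.75, adjusted p = 0.0221) that lost its call when any one of Sham mice 1, 2 and 3 or SCI+FIPI mice 2 and 3 was left out, at values between 2.06 and 2.59. Cxcl10, induced by interferon, overlapped between groups, with 5.27, 12.3 and 1.38 CPM against 10.3, 5.93 and 7.47 CPM (log2 fold change 0.32, SE 0.79). Cx3cl1, the neuronal ligand of a microglial receptor, was the member that fell, from 200, 187 and 210 CPM to 108, 114 and 111 CPM (log2 fold change −0.84, SE 0.06, adjusted p = 4.33e-08).

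Antigen presentation genes were higher in both classes. Of 10 class II genes 9 were higher (median 1.47), and of 12 class I genes 11 were higher (median 1.30). H2-Aa, a class II chain, had 9.15, 15.6 and 9.4 CPM in Sham mice, 25.1, 26 and 30.4 CPM in SCI+FIPI mice and 42.2, 53.7 and 47 CPM in SCI mice. Each group lay apart from the others, with log2 fold changes of 1.25 against Sham (SE 0.20, adjusted p = 0.000557) and −0.81 against SCI (adjusted p = 0.0299). H2-Ab1 and H2-Eb1 gave values of the same kind, 1.50 and 1.31 against Sham and −0.78 and −0.80 against SCI. Ciita, the transcriptional activator of class II genes, overlapped between Sham mice (2.25, 2.16 and 2.76 CPM) and SCI+FIPI mice (2.41, 2.46 and 2.6 CPM), with a log2 fold change of 0.06 and a 95% interval of −0.385 to 0.501. B2m, the light chain of class I molecules, went from 182, 260 and 156 CPM to 453, 411 and 445 CPM (log2 fold change 1.13, SE 0.17).

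Interferon-stimulated genes were mixed, with 9 of 20 higher and none lower in edgeR's test (median 0.64), and 5 higher without Sham mouse 3, which was the lowest Sham mouse for Isg15, Ifit1 and Irf7. Bst2, a membrane protein that tethers virions, had 11.2, 17.4 and 7.98 CPM in Sham mice and 49.8, 53.1 and 54 CPM in SCI+FIPI mice (log2 fold change 2.10, SE 0.23, adjusted p = 0.000106). Irf8, a transcription factor that also drives the myeloid lineage, rose most in this list (log2 fold change 2.17, SE 0.19). Ifit1 did not pass, with 13.4, 8.9 and 4.35 CPM in Sham mice and 17.8, 11.2 and 10.2 CPM in SCI+FIPI mice (log2 fold change 0.56, SE 0.52), and the groups overlapped. Isg15 did not pass either, with 5.17, 6.95 and 3.34 CPM against 8.05, 7.59 and 8.56 CPM and a 95% interval of the log2 fold change from −0.375 to 1.668.

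The promoters of both kinds of gene can hold the interferon response motif GAAANNGAA, searched on both strands in the 250 bases before the gene's start. It was present in 9 of 16 listed interferon-stimulated genes with a promoter sequence (56.2%), in 3 of 10 class I genes (30%) and in 2211 of 27025 genes in all (8.18%). Windows of 30 bases are shown for Bst2, B2m and Gbp3, which passed the test, and for Isg15, which did not. Gbp3 sat at the fold limit (0.52) and fell under it without Sham mouse 3 (0.39) or SCI+FIPI mouse 1 or 2 (0.48 and 0.50) and with upper-quartile scaling (0.48). The windows come from RefSeq on build GRCm38.p6 and read 5′ to 3′ on the gene's strand, with 1 match in capitals. Bst2 lies at chr8:71537584-71537613 (minus strand), B2m at chr2:122147537-122147566 (plus), Gbp3 at chr3:142559989-142560018 (plus, with the motif on the opposite strand) and Isg15 at chr4:156200872-156200901 (minus).
Bst2: gggcattccagGAAAATGAAactgaaaggc
B2m: tataagaacatGAAACTGAAaatgggaaag
Gbp3: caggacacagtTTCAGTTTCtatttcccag
Isg15: cgtaggaaaagGAAACCGAAacagaaaata
A match is a run of letters and not a shown binding site, and Isg15 held the motif as Bst2 did while their fold changes were 0.65 and 2.10. The same search for the PU.1 element GAGGAAGT found few matches. It was held by 1 of 14 phagocyte and lipid-handling genes, 2 of 12 Fc receptor and kinase genes and 0 of 3 oxidase genes. Among 27025 genes in all 2.79% held it.

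Lymphocyte genes were scarce. Of 9 tested genes of T and NK cells Cd4 was the one that passed, from 0.527, 0.691 and 0.46 CPM in Sham mice to 2.41, 1.99 and 2.27 CPM in SCI+FIPI mice (log2 fold change 1.98, SE 0.31). Cd4 is also expressed by macrophages. The defining T cell genes Cd3e, Cd3g and Cd3d had at most 27, 16 and 12 counts in any mouse and were not tested. Without Sham mouse 1, 2 genes passed. Among all genes tested 21.2% were higher, a larger share than in this list. The list's median was 0.13, and it became 0.88 without Sham mouse 2 and negative without Sham mouse 1 (−0.04), Sham mouse 3 (−0.004) or SCI+FIPI mouse 2 (−0.053). In SCI against Sham the median was 0.38.

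B and plasma cell genes included 5 of 10 that were lower and none higher (median −0.76), with 2 lower without Sham mouse 2 and 3 lower, with 1 higher, without SCI+FIPI mouse 1. Among all genes tested 17% were lower and 21.2% higher. Ighm, the heavy chain of immunoglobulin M, had 69, 59.7 and 57.9 CPM in Sham mice, 27.8, 41.5 and 43.3 CPM in SCI+FIPI mice and 19.2, 16.7 and 21.1 CPM in SCI mice. Ighm was lower than in Sham (log2 fold change −0.73, SE 0.16, adjusted p = 0.00346) and higher than in SCI (0.98, adjusted p = 0.0108), with 3 separate ranges.

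Neutrophil genes were higher for Mmp8 and Csf3r among 13 tested, a share below the 21.2% of all genes, and this count became 8 without SCI+FIPI mouse 1 and 4 in DESeq2. Their summed level ran from 85.2 to 175 CPM in Sham mice, 121 to 277 CPM in SCI+FIPI mice and 178 to 189 CPM in SCI mice. S100a8, an abundant neutrophil protein, overlapped between groups, with 5.89, 13.7 and 5.56 CPM in Sham mice and 5.01, 20.6 and 19.5 CPM in SCI+FIPI mice (log2 fold change 0.84, SE 0.62). SCI+FIPI mouse 1 was below the other SCI+FIPI mice and Sham mouse 2 above the other Sham mice for S100a8, and the same order held for S100a9 and Mpo.

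Cell division genes were strongly higher. Of 27 listed genes 26 rose (median log2 fold change 2.25), including replication, spindle and checkpoint members. Top2a, the topoisomerase of dividing cells, had 5.13, 7.6 and 5.77 CPM in Sham cord and 55.1, 47.7 and 44.2 CPM with injury and drug (log2 fold change 2.99, SE 0.14, adjusted p = 4.74e-09). Cdk1, the kinase that starts mitosis, went from 1.58, 1.9 and 1.25 CPM to 15.5, 14.7 and 13.1 CPM (3.19, SE 0.15), also with no overlap. Ccne1, a cyclin of the G1 to S transition, was the exception, at 14.1, 11.9 and 14 CPM against 9.92, 10.6 and 10.9 CPM (log2 fold change −0.35, SE 0.11). The groups did not overlap for Ccne1, and this fall was under the fold limit but passed as lower with no fold limit set. No gene of this list differed between SCI+FIPI and SCI by the limits used. Cdk1 came near them at −0.40 with a 95% interval of −0.652 to −0.149.

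Genes transcribed late in the cell cycle often carry the element TTTGAA and the CCAAT box close to their start. Among 22 listed genes with a promoter sequence 7 held TTTGAA (31.8%, against 18.3% of 27025 genes) and 17 held CCAAT (77.3%, against 37.5%) within 250 bases, on either strand. Windows of 30 bases from RefSeq (GRCm38.p6) are shown for 4 genes of this list, in the gene's orientation, with 1 match to TTTGAA in capitals. Their positions are chr10:69352965-69352994 for Cdk1, chr11:99024350-99024379 for Top2a, chr7:135716477-135716506 for Mki67 and chr4:118437344-118437373 for Cdc20, all on the minus strand.
Cdk1: tgattggctccTTTGAAcgtctacgtgcaa
Top2a: tattggtccatTTTGAAgattctcccgcct
Mki67: tagcgccagaaTTTGAAccgccgttttggt
Cdc20: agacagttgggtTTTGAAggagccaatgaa
These 4 genes had log2 fold changes of 3.19, 2.99, 2.97 and 2.77 in SCI+FIPI against Sham.

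Genes of p53 signalling and cell death were higher for 13 of 18 members (median 0.87). Ripk3, the kinase of necroptosis, had 0.431, 1.04 and 0.501 CPM in Sham mice and 9.21, 9.28 and 7 CPM in SCI+FIPI mice, without overlap (log2 fold change 3.67, SE 0.28, adjusted p = 1.26e-07). Cdkn1a, the p53-induced inhibitor of cyclin kinases, went from 33.9, 40.8 and 52 CPM to 64.3, 77.8 and 76.8 CPM (log2 fold change 0.79, SE 0.18). Pmaip1, which encodes the death protein Noxa, and Casp8 were higher than Sham (0.90 and 1.93) and lower than SCI (−0.79 and −0.53). Of 14 genes of the integrated stress response 3 were higher and 1 lower (median 0.24), and 5 were higher without Sham mouse 3. These shares were close to or below those of all genes tested, 21.2% higher and 17% lower. Atf3 rose most, from 8.05, 6.26 and 3.97 CPM to 57, 42.2 and 46.4 CPM (log2 fold change 3.00, SE 0.23), while Ddit3, at a log2 fold change of 0.31 (95% interval 0.145 to 0.469), stayed under the limit.

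Astrocytes respond to injury by raising filament and secreted proteins, and 19 of 21 reactive astrocyte genes were higher with injury and drug (median 1.24). Gfap, the main filament protein of astrocytes, had 4453, 4040 and 3913 CPM in Sham mice and 8476, 9080 and 9086 CPM in SCI+FIPI mice (log2 fold change 1.10, SE 0.08, adjusted p = 3.95e-08). Vim, a filament protein of reactive astrocytes and many other cells, went from 400, 318 and 308 CPM to 1678, 1560 and 1702 CPM (2.27, SE 0.09). Neither overlapped. Lcn2, the iron-binding lipocalin, did overlap, with 6.85, 8.77 and 3.43 CPM against 7.11, 17.1 and 19 CPM (log2 fold change 1.19, SE 0.46, adjusted p = 0.0633), and it passed at 1.51 without SCI+FIPI mouse 1.

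Homeostatic astrocyte genes divided. Of 17 genes 1 was higher, 5 were lower and 11 did not pass (median −0.28), against 21.2% higher and 17% lower among all genes tested, with 2 higher without Sham mouse 2, and for 6 the 95% interval lay inside the limit of 0.5. Aqp4, the water channel of astrocyte endfeet, was the higher one, from 840, 867 and 901 CPM to 1375, 1320 and 1189 CPM (log2 fold change 0.57, SE 0.08). Slc1a2, the main glutamate transporter, fell from 2336, 2289 and 2404 CPM to 1610, 1596 and 1493 CPM (−0.58, SE 0.08, adjusted p = 1.13e-05). Slc6a11, a GABA transporter, fell most, from 577, 547 and 620 CPM to 308, 328 and 270 CPM (−0.94, SE 0.11). For Kcnj10, the potassium channel, the log2 fold change was −0.17 with a 95% interval of −0.345 to 0.008.

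Myelin and mature oligodendrocyte genes were lower for 10 of 22 members and higher for none in edgeR's test (median −0.45), against 17% lower among all genes tested. Opalin, a membrane protein of mature oligodendrocytes, fell most, from 53.1, 51.2 and 44.9 CPM to 19.4, 23.6 and 24.2 CPM (log2 fold change −1.15, SE 0.09, adjusted p = 9.51e-08). Mobp, a myelin structural protein, went from 3724, 3634 and 3529 CPM to 2106, 2376 and 2425 CPM (−0.66, SE 0.08). Mbp, the basic protein of compact myelin, stayed within the limit, with 20120, 19010 and 19080 CPM in Sham mice and 14310, 16400 and 17400 CPM in SCI+FIPI mice (−0.28, 95% interval −0.454 to −0.096).

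Oligodendrocyte precursor genes were higher for 4 of 16 members (median 0.20), a share close to the 21.2% of all genes tested, and 1 was lower without SCI+FIPI mouse 1. The higher ones included Pdgfra, the growth factor receptor of these cells, from 51.7, 54.5 and 59.6 CPM to 97.8, 98.5 and 104 CPM (log2 fold change 0.85, SE 0.06), and Cspg4, from 40.6, 34.1 and 35.6 CPM to 86.6, 76.7 and 73.3 CPM (1.10, SE 0.09). Pericytes and fibroblasts also express these genes. Olig2, a lineage transcription factor, had 96.1, 79.2 and 89 CPM in Sham mice and 62.5, 71.6 and 71.8 CPM in SCI+FIPI mice (−0.36, SE 0.11), under the fold limit.

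Schwann cell and peripheral myelin genes were higher for 6 of 11 members (median 0.80). Ngfr, the low-affinity neurotrophin receptor, had 3.74, 5.57 and 3.89 CPM in Sham cord and 26, 25.5 and 35.1 CPM with injury and drug (log2 fold change 2.71, SE 0.28, adjusted p = 5.06e-05). The list summed to between 602 and 961 CPM in Sham mice and between 772 and 1520 CPM in SCI+FIPI mice, and the part of attached nerve root in these values was not tested.

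Most ependymal cilium genes did not pass, with 1 of 16 higher and 5 lower (median −0.34), against 21.2% and 17% of all genes tested. The lower count was 3 without SCI+FIPI mouse 3, and the higher count was 2 without Sham mouse 2 or SCI+FIPI mouse 2. Foxj1, the master regulator of motile cilia, had 57.5, 41.2 and 51 CPM in Sham mice and 49.1, 49.6 and 51.9 CPM in SCI+FIPI mice (log2 fold change 0.01, 95% interval −0.198 to 0.218).

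Matrix genes of a fibrotic scar rose steeply. Of 24 collagen genes 20 were higher and 2 lower (median 2.26). Col1a1, a chain of type I collagen, had 90.5, 244 and 209 CPM in Sham mice and 3441, 4732 and 3566 CPM in SCI+FIPI mice (log2 fold change 4.43, SE 0.42, adjusted p = 0.000109), and Col3a1 had 42.1, 236 and 235 CPM against 2027, 2260 and 1999 CPM (3.61, SE 0.64, adjusted p = 0.0028). Sham mouse 1 was the lowest of its group for both collagens. Col4a1, a chain of basement membrane collagen, was higher than Sham (62.1, 88 and 78.3 CPM against 521, 431 and 392 CPM, log2 fold change 2.56) and lower than in SCI mice (597, 808 and 820 CPM, −0.73, adjusted p = 0.0361). Col24a1 and Col25a1 were the members that fell. The values of Col24a1 were 14.7, 15.5 and 13.8 CPM in Sham mice and 7.64, 11.6 and 7 CPM in SCI+FIPI mice (−0.75, SE 0.17).

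Fibroblast and pericyte genes were higher for 16 of 22 tested members and lower for none in edgeR's test (median 2.27), and 1 was lower without Sham mouse 2 or SCI+FIPI mouse 2. Postn, a matricellular protein of scar fibroblasts, rose most, from 4.89, 13 and 9.61 CPM to 137, 277 and 200 CPM (log2 fold change 4.47, SE 0.46, adjusted p = 0.000192). Pdgfrb, the growth factor receptor of pericytes and fibroblasts, went from 30.5, 41.3 and 31 CPM to 124, 108 and 101 CPM (1.70, SE 0.13), with no overlap for either gene. Matrix proteases and their inhibitors were higher for 17 and lower for 2 of 25 members (median 1.99), with 1 lower without Sham mouse 1. Mmp12, the macrophage elastase, had 2.87, 13 and 2.09 CPM in Sham cord and 60.9, 40 and 46.9 CPM with injury and drug (3.03, SE 0.67).

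Proteoglycans of the scar and of perineuronal nets parted. Vcan, the large proteoglycan versican, rose from 38.4, 39.9 and 39.5 CPM to 107, 105 and 88.9 CPM (log2 fold change 1.35, SE 0.08), and Sdc1 rose by 3.02 (SE 0.20). Hapln1, a link protein, fell from 17.2, 16.9 and 22.3 CPM to 5.72, 5.64 and 5.12 CPM, and SCI mice had 3.56, 3.47 and 3.38 CPM. Hapln1 was lower than Sham (−1.78, SE 0.13, adjusted p = 3.95e-08) and higher than SCI (0.66, adjusted p = 0.0126). Bcan, a proteoglycan of astrocytes, stayed within the limit at 526, 460 and 481 CPM against 393, 424 and 434 CPM (−0.23, 95% interval −0.406 to −0.055). Across 16 members 8 were higher and 2 lower (median 0.40).

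TGF-beta and BMP genes were higher for 13 and lower for 1 of 22 members (median 0.99). The lower one, Inhbb, sat at the limit (−0.51) and did not pass when any one of Sham mice 1 and 3 or SCI+FIPI mouse 3 was left out, giving 0 lower. Tgfb1 had 17, 17.2 and 14.8 CPM in Sham mice and 101, 85.5 and 101 CPM in SCI+FIPI mice (log2 fold change 2.55, SE 0.11, adjusted p = 6.29e-09). Gdf15, a stress-induced member of the family, rose most (3.80, SE 0.45).

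Vascular genes rose moderately. Of 24 endothelial and barrier genes 13 were higher and 1 lower (median 0.58), with 2 lower without Sham mouse 2 or SCI+FIPI mouse 1. Cldn5, the tight junction protein of barrier endothelium, had 53.6, 55.1 and 55.1 CPM in Sham mice and 76.1, 89.9 and 102 CPM in SCI+FIPI mice (log2 fold change 0.71, SE 0.09, adjusted p = 1.61e-05). Cdh5, the cadherin of endothelial junctions, went from 23.6, 34.8 and 38.4 CPM to 88.6, 100 and 124 CPM (1.69, SE 0.22). Apln, a peptide ligand of endothelium that neurons express too, was the member that fell, from 81.7, 67.1 and 83.4 CPM to 31.5, 36.9 and 33.5 CPM (−1.19, SE 0.11). Of 16 adhesion genes 13 were higher (median 1.48), with Icam1, a leukocyte ligand on endothelium, at 7.52, 6.43 and 4.85 CPM against 32, 28.2 and 30.1 CPM (2.27, SE 0.18).

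Most synapse and channel genes were lower. Of the 111 distinct genes tested in the 5 lists for vesicle release, inhibitory transmission, glutamate transmission, sodium and calcium channels and potassium channels, 98 were lower and 1 was higher, against 17% lower among all genes tested. Log2 fold changes of the 111 had a median of −1.04, and of −1.45 in SCI against Sham. In the direct test 34 of the 111 were higher in SCI+FIPI than in SCI mice and 0 lower, against 2.36% higher among all genes tested. Snap25, a protein of the vesicle fusion complex (chr2:136713453-136782428, plus strand), had 2042, 1942 and 2187 CPM in Sham mice, 830, 902 and 736 CPM in SCI+FIPI mice and 625, 556 and 410 CPM in SCI mice. The 3 ranges were separate, with log2 fold changes of −1.32 against Sham (SE 0.14, adjusted p = 1.18e-05) and 0.63 against SCI (adjusted p = 0.0196).

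General neuron markers followed the same order. Of 16 markers 13 were lower (median −0.90, and −1.33 in SCI against Sham), against 17% of all genes tested. In SCI+FIPI against SCI 6 were higher, against 2.36% of all genes tested. Rbfox3, the nuclear protein NeuN, had 188, 178 and 195 CPM in Sham mice, 90.3, 99 and 88.2 CPM in SCI+FIPI mice and 69.2, 61.7 and 50.1 CPM in SCI mice (−1.02 against Sham, SE 0.10, and 0.62 against SCI, adjusted p = 0.00487). Tubb3, a neuronal tubulin, was less changed, at 565, 437 and 480 CPM in Sham cord and 360, 418 and 389 CPM with injury and drug (log2 fold change −0.34, 95% interval −0.558 to −0.131), under the limit.

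**Figure D4:**
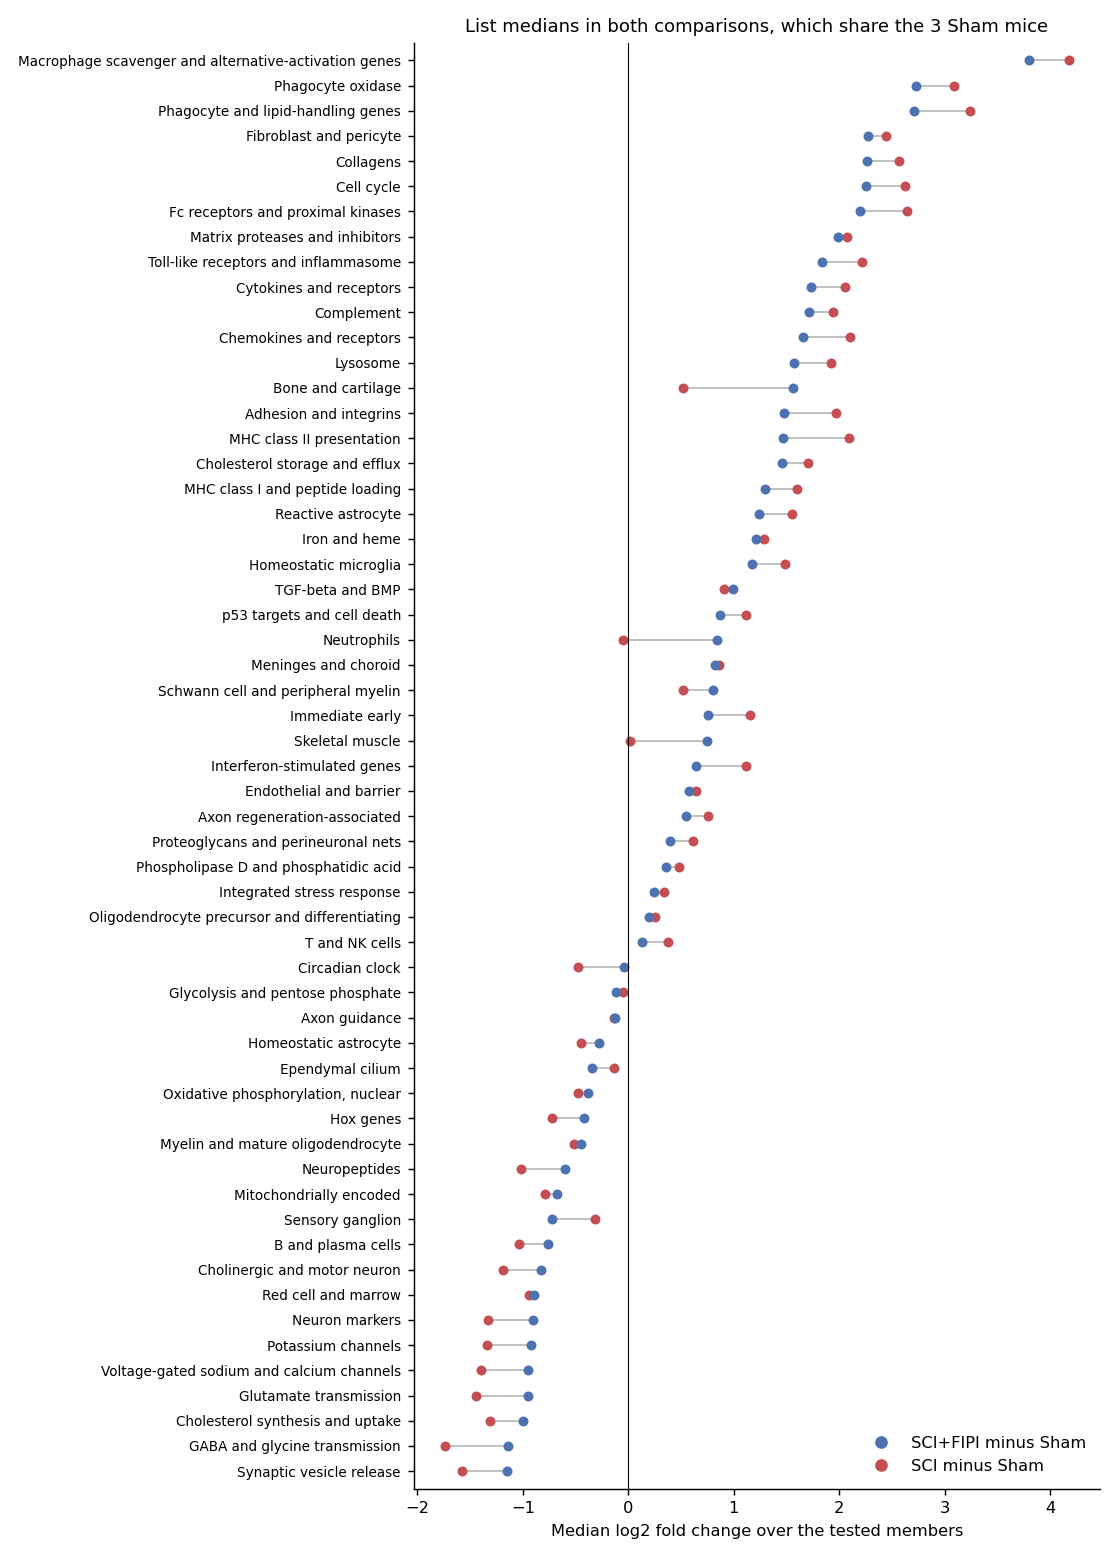
Each line is 1 of the 57 lists, with the median log2 fold change of its tested members on the x axis, in blue for SCI+FIPI against Sham and in red for SCI against Sham, which rest on the same 3 Sham mice. Synaptic vesicle release sits at the bottom, at −1.15 and −1.58, and macrophage scavenger genes at the top, at 3.80 and 4.18.

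Inhibitory transmission was lower for 19 of 20 genes (median −1.14). Gad1, an enzyme of GABA synthesis, had 149, 160 and 156 CPM in Sham mice, 67.8, 71.2 and 66.5 CPM in SCI+FIPI mice and 52.5, 43.6 and 39.7 CPM in SCI mice, with 3 separate ranges (−1.18 against Sham, SE 0.08, and 0.60 against SCI, adjusted p = 0.00205). Slc6a5, the glycine transporter of inhibitory interneurons, fell from 436, 376 and 530 CPM to 168, 176 and 137 CPM (log2 fold change −1.48, SE 0.21, adjusted p = 0.000632), and its range overlapped that of SCI mice. Gabrb2 fell most in the list, from 15.5, 10.7 and 22.1 CPM to 5.01, 5.55 and 3.31 CPM (−1.80, SE 0.26).

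All 23 glutamate transmission genes were lower (median −0.95). Slc17a7, a vesicular glutamate transporter, went from 3.16, 4.02 and 7.19 CPM to 0.224, 0.848 and 0.545 CPM (log2 fold change −3.13, SE 0.42, adjusted p = 3e-05), the largest fall of any listed gene. Gria2, the receptor subunit that limits calcium entry, had 187, 202 and 195 CPM in Sham cord and 93.3, 89.6 and 83.2 CPM with injury and drug (−1.13, SE 0.07). Neither gene overlapped between these groups. Vesicle release genes were lower for 22 of 24 members (median −1.15), with Vamp1 at 1495, 1262 and 1469 CPM against 619, 694 and 595 CPM (−1.15, SE 0.14).

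Channels that set excitability were lower in the same way. Of 21 sodium and calcium channel genes 16 were lower (median −0.95), and of 26 potassium channel genes 21 were lower and 1 higher (median −0.92). Scn1a, a sodium channel of axon initial segments, had 282, 252 and 322 CPM in Sham mice, 107, 112 and 87.3 CPM in SCI+FIPI mice and 73.2, 65.7 and 49 CPM in SCI mice (−1.49 against Sham, SE 0.16, and 0.70 against SCI, adjusted p = 0.0359). Kcna1, a channel of the region beside the nodes of Ranvier, fell from 164, 144 and 206 CPM to 78.1, 88.5 and 68.8 CPM (−1.13, SE 0.17). The gene that rose, Kcnn4, encodes a calcium-activated channel of immune cells and went from 1.15, 3.02 and 0.543 CPM to 14.7, 18.4 and 17.8 CPM (3.43, SE 0.42).

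Cholinergic and motor neuron genes were lower for 9 of 15 members (median −0.83). Slc5a7, the choline transporter, fell from 80.8, 65.5 and 63.4 CPM to 26.6, 28.9 and 22 CPM (log2 fold change −1.44, SE 0.18, adjusted p = 0.000168). Chat, which makes acetylcholine, did not pass, with 25.4, 18.9 and 19.4 CPM in Sham mice and 11.6, 16.9 and 12.7 CPM in SCI+FIPI mice (−0.63, SE 0.26, adjusted p = 0.0692), although the groups did not overlap. It passed at −0.80 without SCI+FIPI mouse 2 and at −0.62 without SCI mouse 1.

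Neuropeptide genes moved in both directions, with 3 of 20 higher and 11 lower (median −0.60). Sst, which encodes somatostatin, fell from 65.3, 79.3 and 66.1 CPM to 36.7, 39.3 and 38.6 CPM (log2 fold change −0.88, SE 0.16), and Vip fell most (−1.52, SE 0.29). Crh rose from 1.44, 1.94 and 1.75 CPM to 7.06, 4.49 and 6 CPM (1.76, SE 0.20, adjusted p = 3.42e-06). Penk, the precursor of enkephalins, was held near Sham, at 93.6, 100 and 96.4 CPM against 111, 96.5 and 103 CPM (0.10, 95% interval −0.042 to 0.24).

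Genes associated with axon regeneration were higher for 10 of 19 members and lower for 2 (median 0.55). Sprr1a, which injured neurons induce, had 4.98, 8.25 and 3.34 CPM in Sham mice and 38.1, 34.4 and 48.3 CPM in SCI+FIPI mice (log2 fold change 2.87, SE 0.31, adjusted p = 0.000153). Gap43, a growth cone protein, changed little, from 146, 137 and 140 CPM to 161, 149 and 155 CPM (0.14, 95% interval 0.007 to 0.269). Atf3, Jun and Arg1 also counted here, and Arg1, at 6.13, is expressed by macrophages as well. Axon guidance genes were higher for 5 and lower for 11 of 30 (median −0.13), against 21.2% and 17% of all genes tested, and for 11 the interval lay inside the limit of 0.5. Among immediate early genes 6 of 17 were higher and 2 lower (median 0.76), against 21.2% and 17% of all genes tested. The neuronal members Arc and Npas4 fell (Arc from 37.1, 30.1 and 37.6 CPM to 19.5, 21.1 and 21.5 CPM, −0.76, SE 0.10), while Fos read 15.8, 16.1 and 23.4 CPM in Sham mice and 26.3, 23.4 and 44.5 CPM in SCI+FIPI mice (0.77, SE 0.44, adjusted p = 0.181). Hox genes of the segment were lower for 6 of 14 (median −0.42), Hoxb8 most (−0.80, SE 0.09).

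Sterol genes split by function. Of 18 genes of cholesterol synthesis and uptake 15 were lower and none was higher in edgeR's test (median −1, and −1.31 in SCI against Sham). Hmgcs1, the synthase that makes the precursor of mevalonate, had 274, 242 and 283 CPM in Sham mice and 116, 134 and 121 CPM in SCI+FIPI mice (log2 fold change −1.11, SE 0.08, adjusted p = 2.98e-08). The groups did not overlap. Insig1, which restrains sterol synthesis, was lower than Sham (−1.08) and higher than SCI (0.55, adjusted p = 0.00595). Storage and efflux genes were higher for 11 of 13 members (median 1.46). Abca1, which exports cholesterol to apolipoproteins, rose from 108, 86.8 and 80.8 CPM to 596, 405 and 472 CPM (2.42, SE 0.18, adjusted p = 5.89e-06), and Soat1, which esterifies it, by 1.20 (SE 0.09).

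Nuclear genes of oxidative phosphorylation were lower for 6 of 26 members (median −0.38), a share near the 17% of all genes tested, and for 12 the interval lay inside the limit. Ndufa4, a respiratory chain subunit, fell from 159, 156 and 153 CPM to 106, 106 and 98.5 CPM (log2 fold change −0.59, SE 0.06). Mitochondrially encoded genes were lower for 7 of 12 (median −0.68), against 17% of all genes tested. They took 4.9 to 5.49% of counts in Sham mice, 3.21 to 3.54% in SCI+FIPI mice and 2.96 to 3.22% in SCI mice. Several share much of their sequence with other genes (100% for mt-Co2, mt-Co3 and mt-Nd4l, 98.4% for mt-Atp6), so their values are uncertain. mt-Nd1 and mt-Cytb share none. Of 22 genes of glycolysis and the pentose phosphate pathway 6 were higher and 4 lower (median −0.12), near the 21.2% and 17% of all genes tested. Hk2, an inducible hexokinase, rose from 12.2, 12.7 and 9.03 CPM to 36.6, 35.9 and 38 CPM (1.71, SE 0.12), and Pfkp, a phosphofructokinase, fell from 306, 290 and 329 CPM to 186, 200 and 189 CPM (−0.69, SE 0.08).

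Clock genes lay on both sides of their SCI values. Of 17 genes 1 was higher and 3 lower than Sham (median −0.04, and −0.48 in SCI against Sham), and 0 were higher without Sham mouse 1, Sham mouse 2 or SCI+FIPI mouse 3. Among all genes tested 21.2% were higher and 17% lower, so the share of lower clock genes was near that of all genes. In the direct test 5 were higher and 3 lower in SCI+FIPI than in SCI mice, against 2.36% higher and 0.695% lower among all genes tested. Arntl, the activator BMAL1, had 13.8, 17.4 and 20.6 CPM in Sham mice, 9.61, 10.8 and 9.81 CPM in SCI+FIPI mice and 15.1, 17.7 and 17.7 CPM in SCI mice. Arntl was lower with the drug than in Sham (log2 fold change −0.78, SE 0.13, adjusted p = 0.000135) and than in SCI mice (−0.74, adjusted p = 0.00595), and SCI and Sham mice overlapped. Npas2, which pairs with BMAL1, gave −0.71 and −0.77. Nr1d2, a repressor of Arntl, had 105, 111 and 105 CPM in Sham mice, 86.4, 92 and 88 CPM in SCI+FIPI mice and 59.4, 52.6 and 47.8 CPM in SCI mice (−0.27 against Sham, inside the limit, and 0.74 against SCI, adjusted p = 0.000576). The hour at which each mouse was killed is not given in the sources used here, and its part in these values was not tested.

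A small set of genes passed in SCI+FIPI against SCI while their interval against Sham lay inside the limit of 0.5. There were 16 such genes among the 572 that passed against SCI, and 30.1% of all genes tested had such an interval against Sham. The rule chose them for both traits. The most abundant were Tef, Nr1d2, Dennd6b, Per3, Stard10 and Arhgap36. Inside the limit, Nr1d2, Dennd6b and Stard10 were still lower than Sham in edgeR's test (adjusted p = 0.0048, 0.00025 and 0.012). Per3 was higher than Sham (adjusted p = 0.0057), and none of these overlapped Sham. Tef, a clock output factor, had 205, 196 and 186 CPM in Sham mice, 197, 200 and 179 CPM in SCI+FIPI mice and 150, 128 and 119 CPM in SCI mice. Sham and SCI+FIPI ranges of Tef overlapped (log2 fold change −0.03, 95% interval −0.201 to 0.144), and SCI lay below both (0.54 for SCI+FIPI against SCI, adjusted p = 0.00303). F2r, the thrombin receptor, was higher in SCI mice, at 16.6, 17.4 and 16.9 CPM in Sham mice, 19.9, 20.2 and 15.2 CPM in SCI+FIPI mice and 24.1, 28.4 and 27 CPM in SCI mice (0.12 against Sham and −0.52 against SCI, adjusted p = 0.01). Tmem267, which encodes a transmembrane protein, showed another pattern, at 5.7, 8.6 and 7.23 CPM in Sham mice, 2.23, 2.25 and 3.9 CPM in SCI+FIPI mice and 9.1, 6.78 and 5.27 CPM in SCI mice (−1.36 against Sham, SE 0.26, and −1.33 against SCI, adjusted p = 0.0112).

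**Figure D5:**
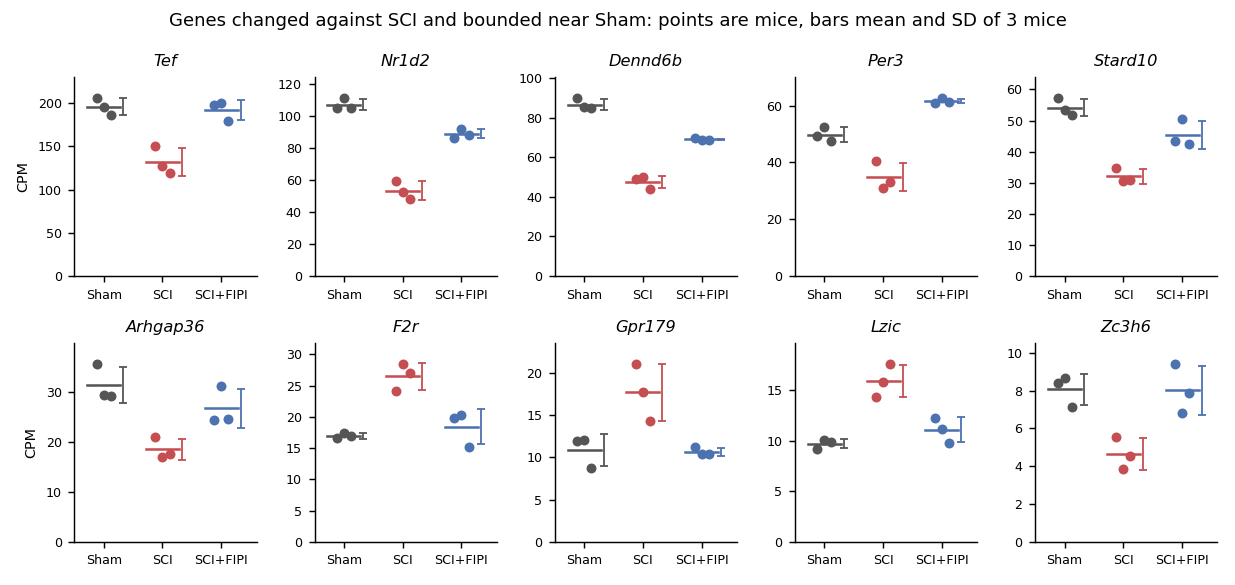
Levels in CPM (y axis) of the 10 most abundant genes that passed in SCI+FIPI against SCI and whose 95% interval against Sham lay between −0.5 and 0.5 on the log2 scale, with 1 point per mouse and bars for the mean and SD of 3 mice. With the drug Tef overlaps Sham and Nr1d2 lies below Sham without overlap. Both are lower still in SCI mice, and F2r sits above Sham in SCI mice.

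Members of the phospholipase D gene family moved separately. FIPI is an inhibitor of phospholipase D, and which members of the family it acts on was not tested here. Pld1 had 22.4, 27.4 and 26.7 CPM in Sham mice and 29.8, 35.1 and 33.4 CPM in SCI+FIPI mice (log2 fold change 0.36, SE 0.09, adjusted p = 0.00367), which is under the fold limit, and Pld2 had 43, 43.7 and 44 CPM against 70.8, 66.9 and 78.8 CPM (0.73, SE 0.08, adjusted p = 1.23e-06). Neither overlapped. The lysosomal members Pld3 and Pld4 rose by 1.23 (SE 0.09) and 2.09 (SE 0.11), and Pld5 fell from 15, 13.5 and 16.2 CPM to 6.35, 7.54 and 6.12 CPM (−1.16, SE 0.13). In SCI+FIPI against SCI Pld5 was higher (0.73, adjusted p = 0.00765), and Pld1 and Pld2 gave −0.12 and −0.16 with 95% intervals of −0.316 to 0.071 and −0.319 to −0.003. These are transcript levels and do not measure the enzyme activity that the drug inhibits. Of 21 genes that make or use phosphatidic acid 9 were higher and 4 lower (median 0.36). Among all genes tested 21.2% were higher and 17% lower, and the list's share of lower genes was near the latter. Agpat2, an acyltransferase that makes it, rose most (2.26, SE 0.15), and Dgkb, a neuronal diacylglycerol kinase, fell most (−1.24, SE 0.09).

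Markers of tissues outside the cord were checked because neighbouring tissue could enter the segment. Skeletal muscle genes summed to between 96.4 and 119 CPM in Sham mice and 64.4 and 79.6 CPM in SCI+FIPI mice. Their median log2 fold change was 0.75 (from −1.21 to 1.87), so the sum and the median went in opposite directions. Of 10 members 1 was higher and 1 lower, with 3 higher without Sham mouse 2 or 2 without SCI mouse 2. Among all genes tested 21.2% were higher and 17% lower. Acta1, the actin of muscle fibres, overlapped (4.12, 17.6 and 2.67 CPM against 14.2, 9.24 and 7.34 CPM). Red cell and marrow genes summed to between 256 and 345 CPM in Sham mice and 60.3 and 213 CPM in SCI+FIPI mice. Of its 8 tested members none passed in edgeR's test (1 lower in DESeq2), and 1 was higher when Sham mouse 2 or SCI+FIPI mouse 1 was left out. Meningeal and choroid genes were higher for 4 of 10 (median 0.82), and for 2 without SCI+FIPI mouse 3, with Foxc1 from 7.28, 15.4 and 14.9 CPM to 45.7, 56.7 and 55.7 CPM (log2 fold change 2.07, SE 0.27).

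Bone and cartilage genes were higher for 9 of 13 members and lower for 1 (median 1.56, and 0.52 in SCI against Sham), and 6 were higher without Sham mouse 3. The lower count was 0 without Sham mouse 1, Sham mouse 3 or SCI+FIPI mouse 1. They summed to between 81.9 and 90.3 CPM in Sham mice, 157 and 196 CPM in SCI+FIPI mice and 228 and 255 CPM in SCI mice, where Col10a1 alone had 65.9, 69.8 and 80.4 CPM. Ibsp, a protein of bone matrix, had 0.527, 1.99 and 0.543 CPM in Sham mice and 1.83, 6.19 and 18.7 CPM in SCI+FIPI mice, which overlapped. The log2 fold change of Ibsp was 3.11 (SE 0.95, adjusted p = 0.0284), and its call was lost when any one of Sham mice 1 and 3 and SCI mice 1 and 3 was left out, at values between 2.80 and 3.12. Ctsk and Acp5, which osteoclasts share with activated macrophages, rose by 2.00 (SE 0.16) and 3.66 (SE 0.49). The part of bone fragments in these values was not tested.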

How the data were processed

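Total RNA of the cord segment was enriched for polyadenylated transcripts with oligo(dT) beads and sequenced on the Illumina platform. The authors deposited raw counts, 1 whole number per gene and mouse, for 52550 Ensembl gene IDs in 9 mice. The submitters' processing notes name the build GRCm38 and R 4.2.3, and the aligner, the counting tool and its strand setting are not given in the sources used here, so reads of overlapping genes could not be assigned by strand. Symbols and coordinates came from GENCODE M21, which held 52403 of the IDs.

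Genes with low counts were removed with filterByExpr, which left 18699, and edgeR 4.0.16 (R 4.3.3) was fitted to all 9 mice with TMM factors, 1 mean per group and robust quasi-likelihood dispersions (biological coefficient of variation 9.3%, 6 residual degrees of freedom). P-values were adjusted by Benjamini-Hochberg over all genes tested. A gene passed with an adjusted p under 0.05 and a log2 fold change of 0.5 or more in size. The standard error was the fold change over the root of the F statistic, and 95% intervals used the t quantile on the total degrees of freedom. The median interval reached 0.244 to each side. CPM were scaled to TMM-adjusted library totals, and a CPM level depends on transcript length. P-values measure the spread between these mice only. The exact two-sided permutation test of 3 mice against 3 cannot go below p = 0.1. On simulated counts for SCI+FIPI against Sham (18365 genes fitted), 136 of 150 genes with a log2 change of at least 1 and 4 unchanged genes passed, and the intervals covered 95.4% of the true values. The simulation changed 200 genes, evenly in both directions, with the spread taken from the fit. In the real comparison 7128 genes passed and rises were larger than falls, so the simulation cannot show how scaling and intervals behave there.

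The comparison, the gene lists and the rule for named genes were chosen with earlier results of these data known. Named genes were the first 4 members of each list and its largest changes, the 10 largest rises and falls above a mean log2 CPM of 1 whose groups did not overlap, the 5 largest rises and falls against SCI by the same limits, the 5 largest differences in mean CPM in each direction, and the 10 most abundant genes bounded near Sham that passed against SCI. Other list members are named to say whether they passed. A few genes that the rule selects are not reported here. Alternatives covered other scaling (RLE, upper quartile), the filter (none, or 10 counts or more in each mouse), a block for replicate number, a fit of the 6 compared mice, DESeq2 1.42.0, limma-voom (limma 3.58.1), other fold limits, glmTreat and leaving out each mouse. For genes bounded near Sham, those on scaling, filter, block and samples were added after the data were seen.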

Additional observations from a re-analysis of the deposited data

How the results depend on the processing

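The count of 7128 genes for SCI+FIPI against Sham kept within 1.5 times under other normalizations, filters and tools, between 6281 (at least 10 counts in every mouse) and 7385 (no filter), and within 6675 and 7186 when a mouse was left out (higher 3735 to 4018, lower 2904 to 3185). It depended on the fold limit, with 11060 genes (5432 lower) without one and 3376 (2376 higher, 1000 lower) at a limit of 1, and glmTreat against 0.5 left 1879 lower genes. SCI against Sham gave 5059 genes at a limit of 1 and 8373 to 8851 with a mouse left out. SCI+FIPI against SCI gave 1800 without a fold limit, 65 at a limit of 1, 0 by glmTreat (402 at an unadjusted p under 0.05), and 189 to 1038 with a mouse left out. The cause was not tested. Genes bounded near Sham numbered 4985 to 5688 with a mouse left out. Replicate numbers did not pair the mice (correlations of same-numbered deviations 0.108, 0.0148 and 0.00836), and the fit with the number as a block gave 7115 genes, of which 7017 passed in both fits. No named gene reversed, and across the 9 fits that each left out 1 mouse 67 of 2763 calls were lost and 16 gained. Depth limits genes under about 1 CPM in Sham, whose fold changes depend on the prior count.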
